A study of Mus musculus with 8 samples.

Results

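The anti-Rtl1 miRNAs are a group of small RNAs made from 1 long noncoding transcript of the imprinted Dlk1-Dio3 domain, and 5 assays for them were followed here through liver injury by carbon tetrachloride (CCl4). The assays were miR-127, miR-136, miR-337-3p, miR-434-3p and miR-431, chosen by name from the 381 assays on the card. All 5 were found in the table. A threshold cycle (Ct), the PCR cycle at which the signal of an assay crosses a set level, was determined on all 8 cards for 4 of them and on 2 of the 8 cards for miR-431.

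The samples were total liver RNA from female C57B6 mice that were 4 weeks old at the start of treatment. Untreated mice, labelled as given nothing, were compared with mice injected intraperitoneally with CCl4, a hepatotoxin, in corn oil for 1, 4 or 8 weeks, with 2 injections a week according to the methods. The dose is given as 1 mg/kg in the sample labels and as 1 ml/kg in the methods. Each of the 4 groups had 2 replicates, each run on 1 TaqMan Array Rodent MicroRNA A Card. No vehicle group was among the samples used here, so CCl4 and its injection cannot be told apart. As all mice started at the same age, those treated longer were older at collection. Time on CCl4 and age therefore cannot be told apart either. The labels do not say that replicates were separate animals, so the p-values measure the spread between cards, which may be technical.

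Genes of this domain are expressed according to the parent they were inherited from. Rtl1, a gene derived from a retrotransposon and needed in the placenta, is expressed from the paternal chromosome. The transcript that runs antisense to it comes from the maternal chromosome, and its miRNAs match the Rtl1 mRNA in full and can direct its cleavage. Along with the miRNAs of the neighbouring Mirg transcript, they are abundant in the embryo, the placenta and the brain, and scarce in most other adult tissues. A miRNA selects its targets mainly through its seed, bases 2 to 8 from the 5′ end.

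The mature sequences, from RefSeq on mouse build GRCm38.p6, are shown because they set the 5 assays apart from each other, with the seed in capitals. The names of 3 assays carry no arm, so both arms of those hairpins are given.
miR-337-3p: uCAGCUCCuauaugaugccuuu
miR-431-5p: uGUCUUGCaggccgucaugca
miR-431-3p: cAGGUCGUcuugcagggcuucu
miR-127-5p: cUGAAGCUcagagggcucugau
miR-127-3p: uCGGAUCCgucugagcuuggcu
miR-434-3p: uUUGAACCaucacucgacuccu
miR-136-5p: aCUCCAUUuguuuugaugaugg
miR-136-3p: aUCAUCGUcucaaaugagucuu

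They are listed in the order of their hairpins on the plus strand. On this build miR-337-3p lies at chr12:109585850-109585871, miR-431-5p at chr12:109590459-109590479 and miR-127-3p at chr12:109592888-109592909. Further along are miR-434-3p at chr12:109594565-109594586 and miR-136-5p at chr12:109595331-109595352. The hairpins of all 5 assays lie within the annotated interval of Rtl1, and the first and the last are 9.6 kb apart end to end. No seed was shared between these arms or with any of the other mature mouse miRNAs among the 1679 names of the RefSeq table. The 2 arms of miR-431 do share a run of 10 bases, GUCUUGCAGG, and the assay name does not tell which of them was measured.

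All members were faint in liver. Levels are given on a log2 scale: the Ct of an assay is subtracted from the mean Ct that its card shows over 149 reference assays (Ct below 35 throughout), so that a level higher by 1 is about a doubling of template. The mean Ct over the 8 cards was 31.8 for miR-127, 33.5 for miR-434-3p, 33.6 for miR-136 and 34.9 for miR-337-3p, against a median of 29.2 over the 166 assays that were tested. miR-337-3p was the faintest of all 166. Replicates of miR-434-3p lay close together, with a pooled replicate SD of 0.21 against a median of 0.39 over the tested assays, while miR-136 (0.95) and miR-337-3p (0.77) were among the more variable and miR-127 (0.46) was near the median. The number of cards limits the precision throughout.

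Across the cards, 193 to 235 assays had a determined Ct, and the mean Ct of the reference assays was lowest at 27.5 and highest at 29.8, on replicate 2 of the 4-week group. The 5 hepatocyte markers chosen for the check, among them miR-122, were determined on every card, as the liver label requires. In bulk RNA, fewer cells of a type and less RNA per cell cannot be told apart. Marker lists are given as the log2 of the sum of their linear levels, in which the assays with the lowest Ct weigh most. For the 7 leukocyte markers it was 4.09 and 4.56 in untreated liver, and the treated pairs read 6.55 and 6.68 (1 week), 6.35 and 6.67 (4 weeks), and 5.13 and 5.47 (8 weeks). At 1 week 6 of the 7 leukocyte markers were higher and 1 of the 5 hepatocyte markers was lower at an adjusted p below 0.05 (limma), where 32.5% of all 166 tested assays were called in either direction. From 1 to 4 weeks, where 47.0% of all assays were called, 3 hepatocyte markers, 2 leukocyte markers and both endothelial markers were lower and 1 leukocyte marker was higher. For the hepatocyte markers it was 7.81 and 7.86 untreated, against 7.04 and 7.08 (1 week), 6.28 and 6.45 (4 weeks), and 7.08 and 7.31 (8 weeks). For the 4 tested markers of mesenchymal and stellate cells, of 6 listed, it was 3.39 and 3.56 untreated, against 3.46 and 3.55 (1 week), 3.78 and 4.22 (4 weeks), and 3.38 and 3.69 (8 weeks). For the 2 endothelial markers, miR-126-3p and miR-126-5p, it was 7.91 and 8.41 untreated, against 8.73 and 8.80 (1 week), 5.95 and 6.75 (4 weeks), and 6.84 and 7.67 (8 weeks). The part of these shifts in the results below was not tested.

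**Figure D1:**
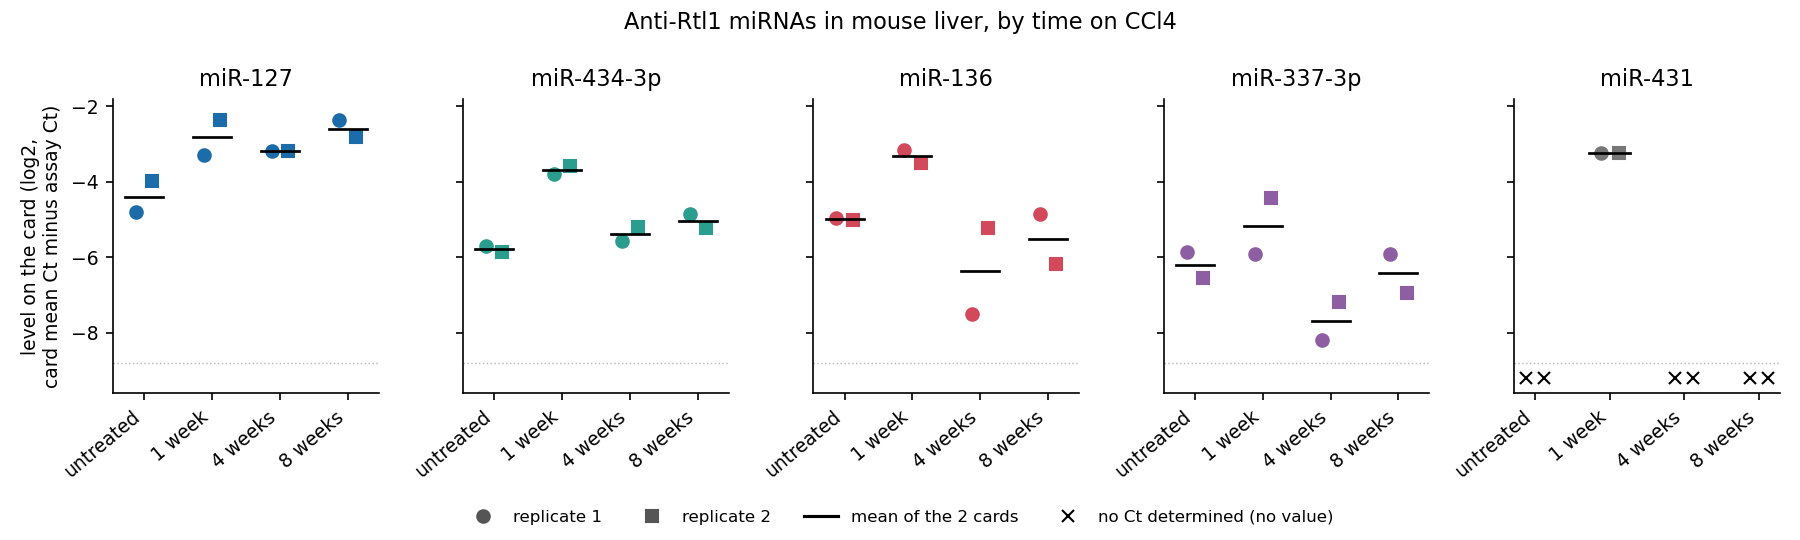
Level of each anti-Rtl1 miRNA on each card (log2, mean Ct of the reference assays minus the Ct of the assay) in untreated liver and after 1, 4 and 8 weeks of CCl4, with circles for replicate 1, squares for replicate 2, lines for the mean of the 2 cards and crosses for cards without a determined Ct, which have no value. miR-127 stays above the untreated cards at all 3 times, miR-434-3p peaks at 1 week, miR-136 and miR-337-3p are lowest at 4 weeks, and miR-431 has values on the 1-week cards only.

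At 1 week of CCl4 the 4 members with a Ct on every card all had higher mean levels than untreated liver, except with scaling to U6 alone, where all 4 were lower, and for miR-434-3p and miR-127 the increase passed the test. By 4 weeks miR-434-3p, miR-136 and miR-337-3p had fallen from their 1-week levels, again except with U6 alone, while the difference of miR-127 did not pass. miR-431 was determined at 1 week alone.

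miR-434-3p, from the hairpin between those of miR-127 and miR-136, had the largest fold change of the 4 at 1 week. The untreated cards read -5.69 and -5.86 and the 1-week cards -3.79 and -3.57. Later cards read -5.57 and -5.20 (4 weeks) and -4.87 and -5.22 (8 weeks). Both 1-week cards lay above all other cards, and all 6 treated cards lay above the untreated ones. In raw Ct the latter did not hold for replicate 2 at 4 weeks (34.97) and at 8 weeks (34.10), both later than the untreated cards (34.04 and 33.85). The former did not hold for replicate 1 at 1 week (32.56), later than replicate 1 at 8 weeks (32.35). In linear terms the 1-week cards averaged 4.27 ± 0.46 times the untreated mean (SD, n = 2). The log2 fold change at 1 week was 2.09 (standard error 0.30, limma, adjusted p = 0.0037 over the 166 assays by the Benjamini-Hochberg method). At 4 weeks it was 0.40 (adjusted p = 0.336) and at 8 weeks 0.73 (adjusted p = 0.172), neither past the threshold, and the 4-week value turned to -0.45 without normalization and to -0.039 with quantile normalization. The order of the group means was untreated, 4 weeks, 8 weeks and 1 week, and the cards of the 4- and 8-week groups overlapped. Among the alternatives run, the increase at 1 week lost its call without any normalization (1.58, adjusted p = 0.315) and with scaling to U6 alone, where the value was -0.29.

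miR-127, long known as an imprinted miRNA that is perfectly antisense to Rtl1, was higher at 1 week. Untreated liver read -4.79 and -3.99 for it, against -3.27 and -2.36 (1 week), -3.18 and -3.19 (4 weeks), and -2.37 and -2.82 (8 weeks). All 6 treated cards were above both untreated cards, and the 1-week cards overlapped those of the later times. In raw Ct the first of these did not hold. Replicate 1 at 1 week (32.04) and replicate 2 at 4 weeks (32.96) were later than untreated replicate 2 (31.98). The treated groups averaged 3.00 ± 1.3, 2.23 ± 0.011 and 3.39 ± 0.75 times the untreated mean at 1, 4 and 8 weeks (SD, n = 2 each). The log2 fold change at 1 week was 1.57 (standard error 0.42, adjusted p = 0.0271, limma). It was 1.21 after 4 weeks (adjusted p = 0.0649) and 1.80 after 8 (adjusted p = 0.0759). The 8-week value was the largest of the 3 and had an unadjusted p of 0.0032, but missed the threshold after adjustment. Of 24 alternatives, 15 kept the call at 1 week. It was lost, among others, without untreated replicate 1 (1.10, adjusted p = 0.182), without 1-week replicate 2 (1.12, adjusted p = 0.162), and with centring on every assay determined on a card (1.21, adjusted p = 0.122). The study's methods name each plate's geometric mean as the normalization. Centring on the geometric mean of all determined assays also lost the call (1.23, adjusted p = 0.110, limma). With scaling to U6 alone, a control RNA whose own level moved by 2.38 at 1 week, the value was -0.81.

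miR-136, whose hairpin is the last of the row, had high levels at 1 week and lower, scattered ones later. The untreated pair read -4.95 and -5.02 and the 1-week pair -3.15 and -3.49, while the 4-week pair read -7.51 and -5.22 and the 8-week pair -4.85 and -6.18. Both 1-week cards were above all the others, both 4-week cards were below the untreated ones, and the 4-week pair was the widest. None of its changes from untreated passed the test, with log2 fold changes of 1.66 (1 week, standard error 0.74, adjusted p = 0.120, limma), -1.37 (4 weeks, adjusted p = 0.192) and -0.53 (8 weeks, adjusted p = 0.658). These calls depended on which cards of the 4-week pair entered the fit. Without 4-week replicate 1 the 1-week value was 1.66 with an adjusted p of 0.0342, and without replicate 2 it was 1.59 (adjusted p = 0.0442), while the 4-week value was -2.52 without replicate 2 (adjusted p = 0.0353) and -0.23 without replicate 1 (adjusted p = 0.794).

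miR-337-3p, from the first hairpin of the row, followed a course similar to that of miR-136, with a later Ct on every card. Untreated liver read -5.86 and -6.55, the 1-week pair -5.90 and -4.43, the 4-week pair -8.19 and -7.19, and the 8-week pair -5.91 and -6.94. The 4-week cards were the lowest 2 of the 8, and the 1-week and 8-week cards each overlapped the untreated range. Its log2 fold changes were 1.04 (1 week, standard error 0.62, adjusted p = 0.226, limma), -1.48 (4 weeks, adjusted p = 0.107) and -0.22 (8 weeks, adjusted p = 0.834). The value at 4 weeks passed with centring on every assay determined on a card (-1.76, adjusted p = 0.0481). Its Ct was 35 or more on 3 cards, as it was on 2 cards for miR-136, the range in which PCR assays are least precise. On replicate 2 at 4 weeks the Ct of miR-337-3p, 36.96, was the highest determined on that card. This card also had the fewest determined assays, 193, so that value lies at the edge of detection.

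miR-431 was determined on both 1-week cards, at a Ct of 32 and 31.82, and on none of the 2 untreated, 2 4-week and 2 8-week cards. On the level scale the 1-week cards were at -3.23 and -3.22. The same level on the other 6 cards would correspond to a Ct of 30.7 to 33, and 49 to 95 assays per card were determined at higher Ct values than that. No fold is given, since an undetermined Ct has no value. Over the whole table, 2 of 381 assays (0.525%) were determined on both 1-week cards and on no other card, the other being rno-miR-347, named after its values were seen. No assay had that pattern for untreated, 4-week or 8-week cards. Over the 4 pairs of cards, 51 of the 754 assays below Ct 33 on at least 1 card of a pair (6.76%) were undetermined on the other card.

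Many assays of the card were called in the same comparisons. At 1 week 2 of the 4 tested members were called, and 32.5% of all 166 assays were. At 4 weeks 0 of 4 members were called by limma against 30.1% of all assays, although miR-127 and miR-337-3p were under 0.05 before adjustment. At 8 weeks 0 of 4 were called by limma against 3.01%, with miR-127 and miR-434-3p under 0.05 before adjustment. With 2 cards a group, pairs that do not overlap are common: 76.5% of the tested assays did not overlap at 1 week, 68.1% at 4 weeks and 60.8% at 8 weeks. The median log2 fold change of the 4 members was 1.62, -0.49 and 0.26 at the 3 times, beside -0.09, 0.03 and -0.04 over all tested assays. The 3 comparisons share the same untreated cards.

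**Figure D2:**
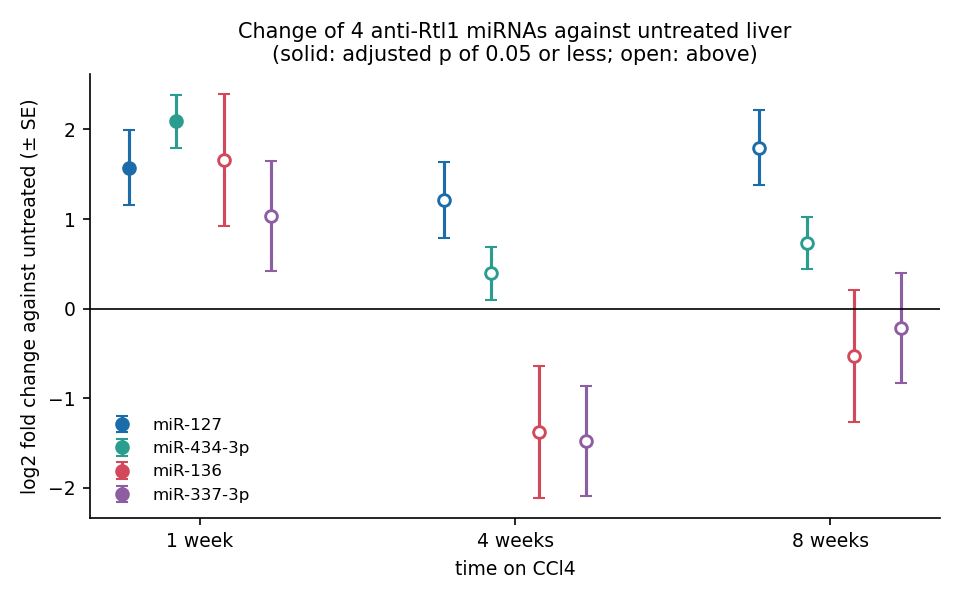
Log2 fold change against untreated liver (y axis, with its standard error from limma) at 1, 4 and 8 weeks of CCl4 (x axis) for the 4 members with a Ct on every card, n = 2 cards per group. All 4 are above 0 at 1 week (with scaling to U6 alone all 4 are below 0), where miR-434-3p (2.09) and miR-127 (1.57) pass, and at 4 weeks they lie between -1.48 and 1.21 with none past the threshold.

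Between 1 and 4 weeks 3 of the 4 members fell. In log2 units miR-136 fell by 3.04 (limma, standard error 0.74, adjusted p = 0.0161), miR-337-3p fell by 2.52 (standard error 0.62, adjusted p = 0.0164) and miR-434-3p fell by 1.70 (standard error 0.30, adjusted p = 0.0061). For each of these both 4-week cards lay below both 1-week cards, and 74.7% of all tested assays likewise had pairs that did not overlap. The difference for miR-127 was -0.36 (95% interval -1.35 to 0.62, adjusted p = 0.490), with overlapping cards. Thus 3 of 4 members were called, in a comparison in which 47.0% of all assays were, and the members' median was -2.11 beside -0.03 over all assays. The mean Ct of miR-337-3p, 34.9, was just under the limit of 35 for testing. Without 1-week replicate 2 (Ct 33.03) or 8-week replicate 1 (Ct 33.39) it reached that limit and the assay was not tested. Its place in the test thus rested in part on a 1-week card, from the group in which it was highest. The decrease of miR-136 was -1.89 without 4-week replicate 1, and it lost its call without 1-week replicate 1 (-2.91, adjusted p = 0.0815) or 1-week replicate 2 (-3.23, adjusted p = 0.0533), and that of miR-337-3p without 4-week replicate 1 (-2.02, adjusted p = 0.0621). That of miR-434-3p lost it with the control RNAs (-0.82, adjusted p = 0.0879), and with U6 alone the 3 values were 0.85, 1.37 and 2.19, the last past the threshold, while miR-127 was higher at 4 weeks by 3.52 (adjusted p = 0.0007).

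From 1 to 8 weeks miR-434-3p was the 1 member called, and 24.1% of all assays were. It fell by 1.36 (standard error 0.30, adjusted p = 0.0203, limma), and both 8-week cards were below both 1-week cards. The call was lost without 1-week replicate 1 (-1.5, adjusted p = 0.0841), 1-week replicate 2 (-1.26, adjusted p = 0.115) or 8-week replicate 2 (-1.18, adjusted p = 0.151), and with centring on every assay determined on a card (-1.07, adjusted p = 0.137). miR-136 differed by -2.19 (adjusted p = 0.0615) and miR-337-3p by -1.25 (adjusted p = 0.165), again with no overlap of the cards, as for 71.7% of all tested assays, while miR-127 differed by 0.23 (adjusted p = 0.673). The miR-136 value passed without 4-week replicate 1 (-2.19, adjusted p = 0.0211), without 4-week replicate 2 (-2.12, adjusted p = 0.0270) and without 8-week replicate 1 (-2.86, adjusted p = 0.0435). Between 4 and 8 weeks, where 1.20% of assays were called, 0 of the 4 members were, and in limma 0 were under 0.05 before adjustment. The differences were 0.59 for miR-127, 0.85 for miR-136, 1.26 for miR-337-3p and 0.34 for miR-434-3p.

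With the 3 treated groups pooled against untreated, miR-127 (1.53, standard error 0.34) and miR-434-3p (1.07, standard error 0.24) were higher, each with an adjusted p of 0.0178 in limma, in a comparison that called 28.9% of all assays. After centring, each was higher in 6 of 6 treated cards than in both untreated cards, as were 13.3% of the tested assays. In raw Ct this held for neither miRNA. An exact two-sided permutation test over the 28 splits of 6 and 2 cards gave p = 0.0357 for miR-127, the smallest it can give, and p = 0.0714 for miR-434-3p. In either direction, 29.5% of the tested assays had treated cards that did not overlap the untreated ones. The share of assays with so small an exact p was not counted. For miR-136 the difference was -0.08 (exact p = 0.929) and for miR-337-3p -0.22 (exact p = 0.750), averages over times at which these miRNAs lay on both sides of untreated. The call was kept in 15 of 23 alternatives for miR-127 and in 14 of 22 for miR-434-3p, and was lost for both with centring on all determined assays (by mean or geometric mean), without normalization, with quantile normalization, with U6 alone and with undetermined values set to Ct 40. Both calls were also lost without untreated replicate 1 (1.08 for miR-127, adjusted p = 0.154, and 1.11 for miR-434-3p, adjusted p = 0.10) and without untreated replicate 2 (1.92, adjusted p = 0.0690, and 0.98, adjusted p = 0.114).

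The difference between 2 members on the same card does not depend on how cards are scaled. An assay's own efficiency enters this difference, so only its change between groups is described, and that change was not tested. miR-127 minus miR-136 was 0.16 and 1.03 on the untreated cards and -0.12 and 1.13 at 1 week. The 4-week cards gave 4.33 and 2.03 and the 8-week cards 2.48 and 3.36, so all 4 cards of the later times lay above all 4 earlier ones. For miR-127 minus miR-337-3p the values were 1.07 and 2.56 untreated, 2.63 and 2.07 (1 week), 5.01 and 4 (4 weeks), and 3.54 and 4.12 (8 weeks), with the same separation. miR-127 minus miR-434-3p was 0.90 and 1.87 untreated, 0.52 and 1.21 (1 week), 2.39 and 2.01 (4 weeks), and 2.5 and 2.4 (8 weeks), again higher on every card of the later times. These differences are the same in raw Ct values. For miR-136 minus miR-337-3p the values were 0.91 and 1.53 untreated, 2.75 and 0.94 (1 week), 0.68 and 1.97 (4 weeks), and 1.06 and 0.76 (8 weeks), so that every pair of groups overlapped. miR-136 minus miR-434-3p was 0.74 and 0.84 untreated, 0.64 and 0.08 (1 week), -1.94 and -0.02 (4 weeks), and 0.02 and -0.96 (8 weeks), so the later cards all lay below the earlier ones here too. miR-337-3p minus miR-434-3p was -0.17 and -0.69 untreated, -2.11 and -0.86 (1 week), -2.62 and -1.99 (4 weeks), and -1.04 and -1.72 (8 weeks), with overlap between the earlier and the later cards. Over all 13695 pairs of tested assays, 17.6% separated the later from the earlier cards in this way, as did 18.8% of the 165 pairs that hold miR-127. Such a separation is thus not rare on these cards. Of the 6 pairs of members, which share assays, 4 separated (66.7%), and that share was not tested against the others.

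**Figure D3:**
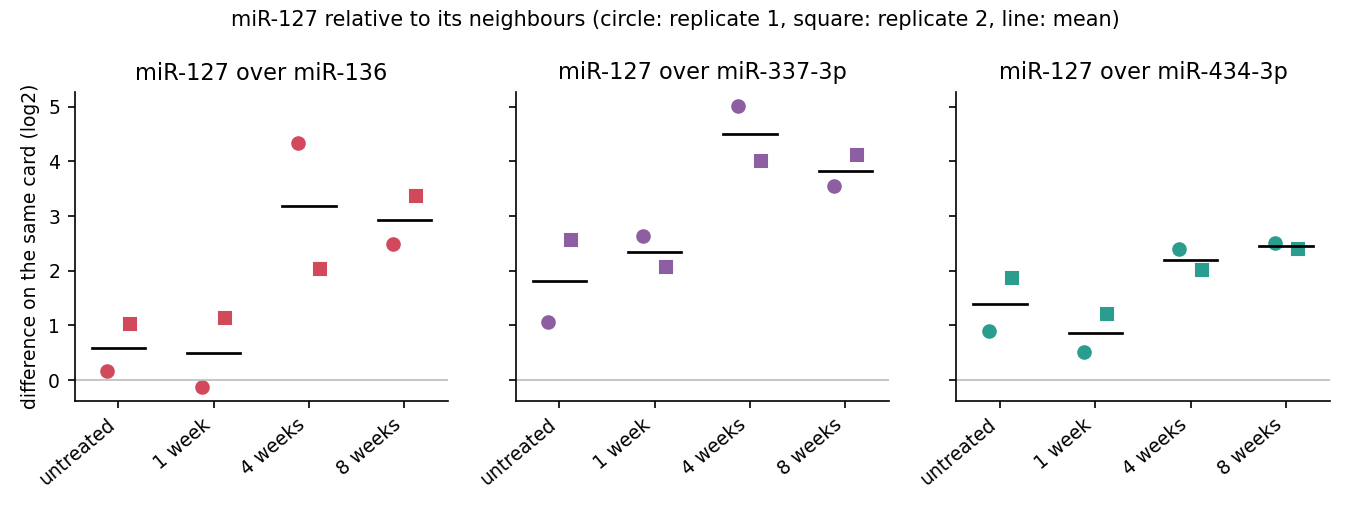
Level of miR-127 minus that of miR-136, miR-337-3p or miR-434-3p on the same card (y axis, log2) in each group (x axis), with circles for replicate 1, squares for replicate 2 and lines for the mean. In each panel the cards at 4 and 8 weeks lie above all untreated and 1-week cards, a separation found in 17.6% of all pairs of tested assays.

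The list made for the same transcript held 3 more assays that were on the card. The opposite arm of the miR-337 hairpin, miR-337-5p, was determined on all cards but had a mean Ct of 35.2 and was not tested. It read -7.59 and -6.16 untreated, -5.70 and -5.13 (1 week), -7.18 and -6.02 (4 weeks), and -7.51 and -8.08 (8 weeks), so that its 1-week cards too were above all others. In raw Ct this did not hold, with replicate 1 at 1 week (34.47) later than untreated replicate 2 (34.15). The share of all assays with both 1-week cards above all others was not counted. The opposite arm of miR-434, miR-434-5p, was at -3.60 and -3.78 at 1 week and -6.59 and -4.23 at 4 weeks, with 1 card each determined in untreated liver (-6.09) and at 8 weeks (-3.13). miR-433 was at -4.26 and -3.74 untreated and -3.97 and -3.92 at 8 weeks, with 1 card each determined at 1 week (-3.96, within its untreated range) and at 4 weeks (-4.76).

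A fixed list for the rest of the domain held 36 further assays that were on the card, most of them for miRNAs of the Mirg transcript. It also held miR-540-3p, miR-540-5p and miR-665, each determined on no card, whose genes lie between those of miR-337 and miR-431. Of the 36, 14 were determined on no card, 14 on some and 8 on all, and these 8 were tested. At 1 week 6 of the 8 were higher, 1 (miR-494, -1.8) was lower and 1 was not called, with a median log2 fold change of 2.78 beside 1.62 for the 4 anti-Rtl1 members. Over all tested assays 32.5% were called in this comparison. miR-379, the first miRNA of the Mirg cluster, was at 2.29 (adjusted p = 0.0132, limma) and miR-376a at 2.59 (adjusted p = 0.0271). At 4 weeks 2 of 8 were higher and at 8 weeks 2 of 8, miR-410 and miR-409-3p both times, beside 30.1% and 3.01% of all tested assays. From 1 to 4 weeks all 8 were called, 6 lower and 2 (miR-494 and miR-667) higher, with a median of -2.47, in the comparison in which 47.0% of all assays were called. Over that interval miR-379 differed by -1.41 (limma, adjusted p = 0.0482) and miR-410 by -3.46 (adjusted p = 0.0010). Whether miR-127 differed in this from the rest of the domain was not tested.

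**Figure D4:**
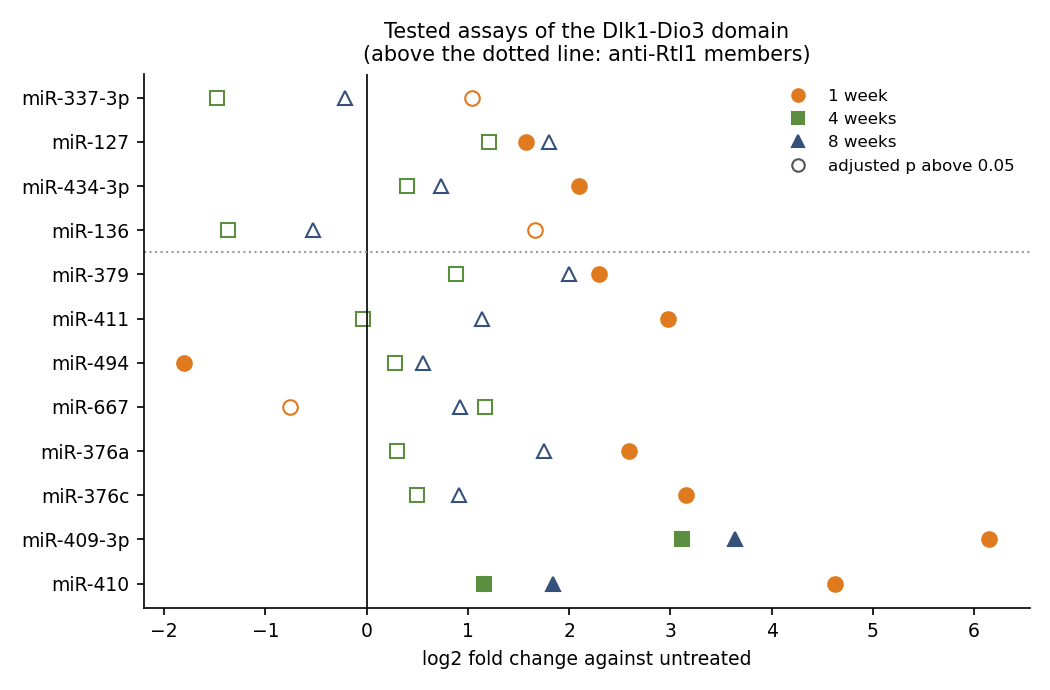
Log2 fold change against untreated liver (x axis) at 1, 4 and 8 weeks of CCl4 for the 12 tested assays of the Dlk1-Dio3 domain (y axis), n = 2 cards per group, with filled symbols for an adjusted p of 0.05 or less in limma. At 1 week all values but those of miR-494 and miR-667 lie above 0, and the 4 anti-Rtl1 members range from 1.04 to 2.09.

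The assays most like each member were named by the highest Pearson correlation of levels over the 8 cards, which share the 4 groups and the centring, as a description. For miR-434-3p these were miR-410 (r = 0.96) and miR-376c (0.95), both of the Mirg cluster, and miR-150 (0.93), a lymphocyte miRNA. For miR-127 they were miR-125a-5p (0.88), miR-409-3p of the same domain (0.82) and rno-miR-351 (0.80). For miR-136 they were miR-320 (0.89), miR-31 (0.89) and U6 (0.87), and for miR-337-3p they were miR-182 (0.89), miR-31 (0.87) and miR-136 (0.86). U6, a small nuclear RNA used as a control, differed from untreated by 2.38 (1 week), -1.5 (4 weeks) and -1.11 (8 weeks). Scaled to U6 alone, the log2 fold changes of miR-136 were -0.72, 0.13 and 0.58 at the 3 times, none past the threshold.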

How the data were processed

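The authors deposited raw Ct values from TaqMan low-density cards for rodent miRNAs, read without pre-amplification, with 1 column per sample. The software that set the threshold is not given in the sources used here. Their table of fold changes holds comparisons of their own and was not used. Each Ct was subtracted from its card's mean over 149 reference assays (Ct below 35 on all cards). The study's own normalization, by each plate's geometric mean, was run only as an alternative, over all determined assays. The test covered 166 assays, those with no undetermined Ct and an average Ct under 35, in limma 3.58.1 (R 4.3.3), with 1 lmFit and eBayes model of 8 cards in 4 groups, with Benjamini-Hochberg adjustment within each comparison at 0.05, and checked on simulated data. Members undetermined on any card were not tested. Names followed the list of members, assays of the domain, the 3 most correlated assays, and marker lists. The members and lists were chosen with earlier results of these data known. Alternatives were other centrings, Ct limits and treatments of undetermined values, a replicate block, a trend, a fit to the groups compared and each card left out. Sequences and gene order came from RefSeq tables of GRCm38.p6, all 5 members matching. The build is not part of the Ct data. Plots used matplotlib 3.10.9.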

Additional observations from a re-analysis of the deposited data

Results flagged for a closer look

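For 3 members the level differed between times on CCl4, and so between ages, by limma's test of the difference itself. Between 1 and 4 weeks the log2 difference was -3.04 for miR-136 (adjusted p = 0.0161), -2.52 for miR-337-3p (adjusted p = 0.0164) and -1.70 for miR-434-3p (adjusted p = 0.0061). Between 1 and 8 weeks it was -1.36 for miR-434-3p (adjusted p = 0.0203). Over all tested assays 47.0% were called in the first of these comparisons and 24.1% in the second. The place of miR-337-3p in the test rested in part on a 1-week card, as stated above. Leaving out 1 card ended the call for miR-136 (without 1-week replicate 1, -2.91, or 2, -3.23), for miR-337-3p (without 4-week replicate 1, -2.02) and for miR-434-3p between 1 and 8 weeks (without 1-week replicate 1, -1.5, or 2, -1.26, or 8-week replicate 2, -1.18). With scaling to U6 alone the 3 values from 1 to 4 weeks turned to 0.85, 1.37 and 2.19, the last called, and that of miR-434-3p from 1 to 8 weeks to 2.13, also called. The miR-434-3p call from 1 to 4 weeks was lost with the control RNAs (-0.82) and without normalization (-2.03), those of miR-136 and miR-337-3p with undetermined values set to Ct 40, and that of miR-434-3p from 1 to 8 weeks in all 3 of these settings and with centring on all determined assays (-1.07). On the same cards the log2 of the summed linear levels of the leukocyte markers was 6.55 and 6.68 at 1 week and 6.35 and 6.67 at 4 weeks. That of the 2 endothelial markers was 8.73 and 8.80 at 1 week and 5.95 and 6.75 at 4 weeks. The hepatocyte markers read 7.04 and 7.08, then 6.28 and 6.45, and the mesenchymal and stellate markers 3.46 and 3.55, then 3.78 and 4.22. Their part in these differences was not tested.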

How the results depend on the processing

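The values below are log2 differences, and the cause of each change was not tested. With scaling to U6 alone, chosen after seeing the data like the other single control RNAs, the 1-week values were -0.81 (miR-127), -0.72 (miR-136), -1.34 (miR-337-3p) and -0.29 (miR-434-3p). The 4-week values became 2.71, 0.13, 0.025 and 1.9 in that order, with miR-127 and miR-434-3p now called, and at 8 weeks those of the first 3 became 2.91 (called), 0.58 and 0.90. From 1 to 4 weeks the 4 values were 3.52, 0.85, 1.37 and 2.19, the first and last called. From 1 to 8 weeks they were 3.71, 1.3, 2.23 and 2.13, all called but that of miR-136, and from 4 to 8 weeks miR-434-3p was at -0.055. With all treated cards pooled, miR-127 (1.61) and miR-434-3p (1.15) no longer passed. With snoRNA202 alone miR-136 (3.06) and miR-337-3p (2.43) passed at 1 week, and from 1 to 8 weeks (-3.37 and -2.44), where miR-127 turned to -0.96, while the pooled values turned to 0.59 (miR-136) and 0.45 (miR-337-3p). With snoRNA135 alone the pooled miR-136 value was 0.038. With the control RNAs together miR-127 was 1.33 (adjusted p = 0.0503) at 1 week and passed at 4 weeks (1.85) and 8 weeks (2.26). miR-337-3p turned to 0.24 at 8 weeks and miR-127 to 0.52 from 1 to 4 weeks, miR-434-3p no longer passed from 1 to 4 weeks (-0.82) or 1 to 8 weeks (-0.66), and the pooled values were 0.21 (miR-136) and 0.068 (miR-337-3p). With the mean of all determined assays, miR-127 at 1 week (1.21), miR-434-3p from 1 to 8 weeks (-1.07) and the pooled miR-127 (1.29) and miR-434-3p (0.84) lost their calls, and miR-337-3p at 4 weeks (-1.76) and miR-136 from 1 to 8 weeks (-1.9) gained one. With the geometric mean, which the study names for its normalization, the same 4 calls were lost (1.23, -1.05, 1.33 and 0.88). That of miR-136 from 1 to 8 weeks was gained (-1.88). Without normalization the calls were lost for miR-127 at 1 week (1.06), for miR-434-3p at 1 week (1.58), from 1 to 4 weeks (-2.03) and from 1 to 8 weeks (-0.86), and pooled (1.07 and 0.62), and miR-434-3p turned to -0.45 at 4 weeks. With quantile normalization calls were lost for miR-127 at 1 week (1.31, adjusted p = 0.0885) and pooled (1.21) and for miR-434-3p pooled (0.55), and miR-434-3p turned to -0.039 at 4 weeks. With undetermined values set to Ct 40, 279 assays were tested and the values stayed, but calls were lost for miR-127 at 1 week (1.57) and pooled (1.53), for miR-136 (-3.04) and miR-337-3p (-2.52) from 1 to 4 weeks, and for miR-434-3p from 1 to 8 weeks (-1.36) and pooled (1.07). Below a mean Ct of 32, where miR-127 is the only member left, it passed at 4 weeks (1.21, adjusted p = 0.0465). A fit to the groups compared called miR-136 at 1 week (1.66) and from 1 to 8 weeks (-2.19).

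Leaving out 1 card at a time, the lone card of a group being assumed to vary like the other groups, gave ranges of 1.10 to 2.05 for miR-127 and 1.52 to 1.83 for miR-136 at 1 week, -2.52 to -0.23 for miR-136 at 4 weeks, and -1.19 to 0.14 for miR-136 and -0.57 to 0.30 for miR-337-3p at 8 weeks. From 1 to 4 weeks they were -0.86 to 0.066 (miR-127), -4.11 to -1.89 (miR-136) and -3.3 to -2.02 (miR-337-3p), and from 1 to 8 weeks -0.26 to 0.67 (miR-127), -2.86 to -1.52 (miR-136) and -1.54 to -1.18 (miR-434-3p). From 4 to 8 weeks miR-136 ranged from -0.30 to 1.99. Pooled, the ranges were 1.08 to 1.92 (miR-127), -0.49 to 0.30 (miR-136), -0.57 to 0.081 (miR-337-3p) and 0.98 to 1.13 (miR-434-3p). The other ranges were 0.68 to 1.80 (miR-337-3p) and 1.98 to 2.23 (miR-434-3p) at 1 week, 0.78 to 1.60 (miR-127), -1.98 to -0.98 (miR-337-3p) and 0.21 to 0.58 (miR-434-3p) at 4 weeks, and 1.37 to 2.19 (miR-127) and 0.56 to 0.91 (miR-434-3p) at 8 weeks. They were -1.85 to -1.51 (miR-434-3p) from 1 to 4 weeks, -2.02 to -0.73 (miR-337-3p) from 1 to 8 weeks, and 0.36 to 0.82 (miR-127), 0.76 to 1.78 (miR-337-3p) and 0.15 to 0.52 (miR-434-3p) from 4 to 8 weeks. The average Ct of miR-337-3p reached 35 in some of these fits, which then give no value for it.

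Of 633 alternative values of the members, 534 kept their direction and side of the threshold, 40 lost a call, 22 gained one and 37 turned sign. The number of all assays called depended strongly on the setting: 54 at 1 week (5 without normalization, 127 with U6 alone), 50 at 4 weeks (3 with Ct 40, 69 with U6 alone), 78 from 1 to 4 weeks (27 to 152), 40 from 1 to 8 weeks (3 to 154) and 48 pooled (2 to 53). At 8 weeks it was 5 (0 to 12, limma, with 30 assays under 0.05 before adjustment with snoRNA202 alone). From 4 to 8 weeks it was 2 (0 to 9, limma, with 18 before adjustment without normalization). All these ranges leave out the crossed block named below, which gave 17 calls at 8 weeks. The median over all assays moved to -2.47, 1.53 and 1.07 with U6 alone, and to -0.33, 0.67 and 0.42 with the control RNAs. Cards with the same replicate number did not deviate together in every pair of groups (r from -0.50 to 0.43). The replicate block gave 50, 49 and 4 calls at 1, 4 and 8 weeks and changed no call of a member, and a crossed block, added after seeing the data, gave 74, 65 and 17. The Ct was 35 or more on 3 cards for miR-337-3p and on 2 for miR-136.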

Other observations

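Among the other listed assays of the anti-Rtl1 transcript, some cards had no Ct where the replicate had one. miR-433 had a Ct of 32.73 on replicate 1 at 1 week and 33.01 on replicate 1 at 4 weeks, and none on replicate 2 of either time. miR-434-5p had a Ct of 30.61 on replicate 1 at 8 weeks, the lowest of its 6 values, and none on replicate 2. Over all assays below Ct 33 on at least 1 card of a pair, the share undetermined on the other card was 3.33% for untreated liver, 5.49% at 1 week, 10.9% at 4 weeks and 7% at 8 weeks.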
